A study of Rattus norvegicus with 45 samples.

Results

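The genes described here are 7 members of the rat Cyp2a and Cyp2c families, Cyp2a1, Cyp2a2, Cyp2c7, Cyp2c13, Cyp2c22, Cyp2c23 and Cyp2c24, followed in liver after 2 triazole fungicides. They were taken from a fixed list of names, and a member counted as measured where the annotation of the array lists a probe set with that gene alone. That holds for 6 of the 7, with 1 probe set each, among 31042 probe sets tested, and Cyp2c24 has none. A further probe set is listed with both Cyp2a1 and Cyp2a2 and is counted as neither.

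The animals were male Sprague-Dawley rats, adults of 10 weeks, that received the compounds by gavage, and total RNA of their livers was hybridised to Affymetrix Rat Genome 230 2.0 arrays. The 9 groups of 5 arrays are triadimefon at 175 mg/kg/day, myclobutanil at 225 mg/kg/day and controls, each at 6 h, 24 h and 14 days. The doses are stated for the series and not for each rat, and what the controls were given is not stated in the sources used here. The labels do not settle how many animals there were: the design text counts 15 liver samples, the labelling protocol 3 rats in each group, and the titles 45 arrays. The titles set the groups here, and the p-values cover only the spread between the 5 arrays of a group, some of which may share an animal. Whole liver was used, in which fewer cells of a type and less RNA per cell cannot be told apart.

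Cytochrome P450 enzymes of the 2A and 2C subfamilies sit in the endoplasmic reticulum of hepatocytes and oxidise steroids, retinoids, fatty acids and drugs. In the rat much of this family is sex-biased in the adult liver: Cyp2a2 and Cyp2c13 are male genes, whereas Cyp2a1 and Cyp2c7 are higher in females. The bias follows the rhythm of growth hormone release, pulsed in males and more even in females. Cyp2a1, Cyp2a2 and Cyp2c13 encode steroid hydroxylases, Cyp2c7 and Cyp2c22 act on retinoic acid, and Cyp2c23 makes epoxides from arachidonic acid in liver and kidney. The nuclear receptors CAR and PXR, which many triazoles activate, raise the P450 genes of the 2B and 3A subfamilies.

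In RefSeq on the GRCr8 build all 7 genes lie on chromosome 1, in separate places. Cyp2a1 (91359278 to 91372554) and Cyp2a2 (91391492 to 91417158) are neighbours. Cyp2c24 (246286341 to 246348607), Cyp2c7 (247966295 to 248022393), Cyp2c13 (248706787 to 248787239), Cyp2c22 (248941143 to 248980767) and Cyp2c23 (252838427 to 252863081) follow each other further along. The table of promoters holds 6 of the 7, all but Cyp2a2. Stretches of 250 bases before the start of transcription are shown for Cyp2c22, the member whose level differed most between groups after normalization, and for Cyp2a1, the member of lowest score. Capitals mark TATAAA (the letters of a TATA box, at any distance), TGTTTAC (a site of the forkhead factors of liver) and AGGTCA (the half-site of nuclear receptors). Matches on either strand are marked, and TGACCT is AGGTCA on the other strand.
Cyp2c22 (GRCr8 chr1:248980768-248981017, minus strand, 5′ to 3′): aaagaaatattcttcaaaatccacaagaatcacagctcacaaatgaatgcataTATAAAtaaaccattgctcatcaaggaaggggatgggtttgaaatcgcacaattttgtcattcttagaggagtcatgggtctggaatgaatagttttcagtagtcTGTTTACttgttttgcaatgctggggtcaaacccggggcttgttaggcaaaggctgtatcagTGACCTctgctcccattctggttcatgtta
Cyp2a1 (GRCr8 chr1:91359028-91359277, plus strand, 5′ to 3′): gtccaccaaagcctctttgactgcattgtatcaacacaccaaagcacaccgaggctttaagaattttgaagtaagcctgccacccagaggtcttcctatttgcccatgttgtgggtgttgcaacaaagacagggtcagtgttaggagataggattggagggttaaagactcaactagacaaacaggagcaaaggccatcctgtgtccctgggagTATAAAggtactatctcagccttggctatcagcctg

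Motifs were searched on both strands of the whole 300-base promoters of the table, which run 50 bases past the start. TATAAA stood in 5 of the 6 members, all but Cyp2c23, against 14.2% of 33469 promoters. Its first base lay at -36 in Cyp2a1, at -31 and -172 in Cyp2c7, at -41 and -170 in Cyp2c13, at -197 in Cyp2c22 and at -29 in Cyp2c24, counted from the start. The match at -170 in Cyp2c13 was on the other strand, and the match at -197 was the only one in Cyp2c22. TGTTTAC stood in Cyp2c7, Cyp2c22 and Cyp2c23 and in 3.78% of all promoters. AGGTCA stood in Cyp2c7 and Cyp2c22 and in 16.2% of all promoters, and its direct repeat with 4 bases between in 0 of 6 members and 0.00598% of all. The STAT5 site TTCNNNGAA stood in 0 of 6 members and in 8.87% of promoters, and CAAAGTCCA (a form of the HNF4 site, 0.391%), TTGCGCAA (C/EBP, 0.17%) and the HNF1 site (0.0448%) also stood in 0 of 6. A match is a run of letters and not a measured site.

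Values are the deposited scores, on a log-type scale whose base is not stated in the sources used here; a unit is a 2-fold step on a log2 scale and a 2.72-fold step on a natural log scale. All 6 measured members were well above the middle of the array: Cyp2a1 averaged 1.64 over the 45 arrays, above 94.9% of probe sets, and the other 5 averaged 3.32 (Cyp2a2) to 4.34 (Cyp2c7), above 99.4% to 99.9% of probe sets. Scores of different probe sets give no order of their transcripts. The tissue label was borne out by hepatocyte markers, of which 13 of 14 were measured: their mean per array lay between 3.62 and 4.76, and albumin averaged 4.88. Lymphocyte markers averaged between -0.005 and 0.103 per array.

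The bright end of the deposited arrays was not level, and the scores of 5 of the 6 members followed it closely. The 99th percentile of an array ran from 2.69 (a control at 6 h) to 3.52 (a control at 24 h). Within groups, the correlation of a member's score with that percentile over the 45 arrays was 0.946 for Cyp2a2, 0.927 for Cyp2c7, 0.917 for Cyp2c23, 0.914 for Cyp2c22, 0.860 for Cyp2c13 and 0.397 for Cyp2a1, as a description. Quantile normalization, which gives every array the same distribution of scores, lowered the SD of Cyp2c7 within groups to 0.075, against 0.286 as deposited, and that of Cyp2c22 to 0.070, against 0.256. For Cyp2a1 the SD was 0.119 after it and 0.137 before. For the bright members such a fall follows from the method, which makes the bright end of all arrays equal. Below, ± is the SD of 5 arrays beside a group mean and the SE of the fit beside a difference. Both scales are given, the deposited scores as the planned test and the quantile-normalized ones beside them.

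**Figure D1:**
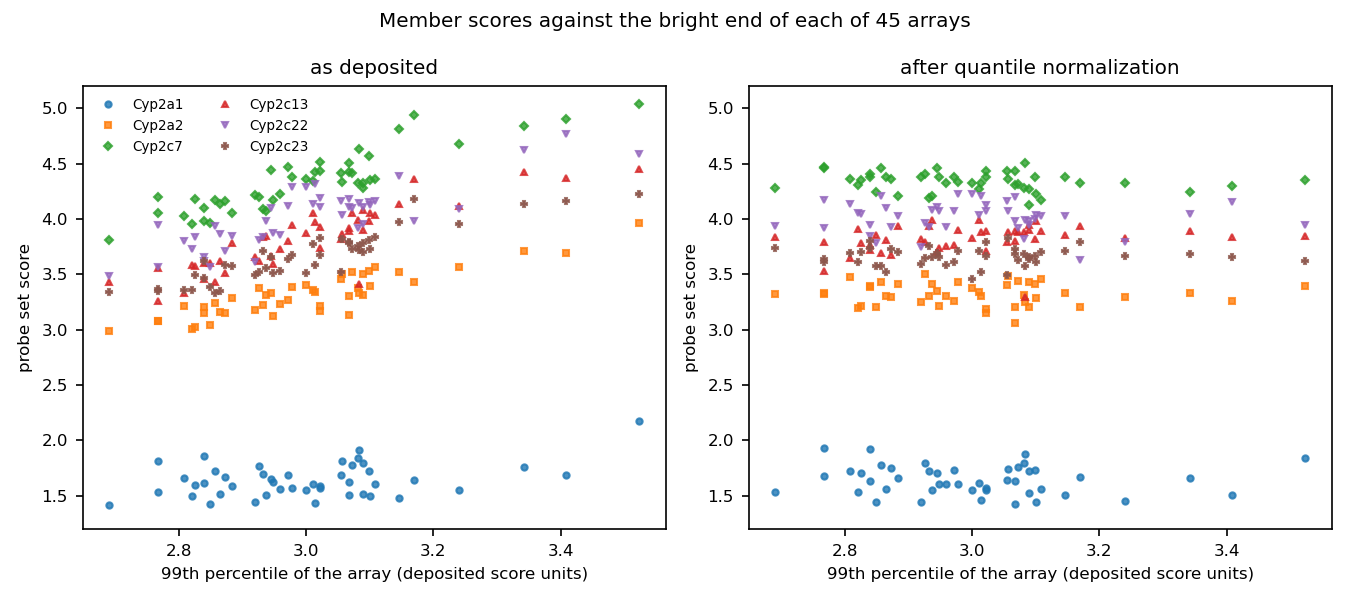
Score of each of 6 probe sets (vertical axis, score units) against the 99th percentile of the same array (horizontal axis, deposited score units), 1 point per array and gene for 45 arrays, as deposited (left) and after quantile normalization (right). As deposited, the 5 bright genes climb with the percentile (within-group correlations of 0.860 to 0.946). After normalization they lie flat, which the levelling itself brings about.

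As deposited, none of the 6 members passed the test in any comparison. With limma over all 45 arrays and Benjamini-Hochberg adjustment over all probe sets, 0 of 36 differences against control and 0 of 90 over all comparisons had an adjusted p under 0.05, the lowest being 0.161 against control and 0.0975 in all. The differences against control lay between -0.35 and 0.27 score units, and the outermost bounds of their 95% intervals were -0.69 (Cyp2c13) and 0.58 (Cyp2c22). The width differed by gene, with an SE of 0.08 for Cyp2a1 and of 0.17 for Cyp2c7. In each of these 36 comparisons the 5 treated arrays overlapped the 5 controls. By the unadjusted p, the members under 0.05 numbered 0 of 6 for triadimefon and 1 for myclobutanil at 6 h, 2 and 1 at 24 h, and 1 and 1 at 14 days. Of all 31042 probe sets, 3534 and 2624 were under 0.05 unadjusted at 6 h, 6834 and 6800 at 24 h, and 7362 and 4070 at 14 days. In the same fits the share of all probe sets called was 0.915% for triadimefon and 0.380% for myclobutanil at 6 h, 7.98% and 8.47% at 24 h, and 6.69% and 0.792% at 14 days. The median difference of the 6 members was -0.03 for triadimefon and -0.06 for myclobutanil at 6 h, -0.18 and -0.13 at 24 h, and 0.03 and 0.21 at 14 days. The median over all probe sets stayed between -0.0106 and 0.0081. Because the deposited arrays were centred near 0, that median is no baseline for bright probe sets. After quantile normalization the members' medians were 0.02 and 0.07 at 6 h, -0.04 and 0.02 at 24 h, and 0.04 and 0.04 at 14 days for triadimefon and myclobutanil, so the sign turned in 3 of the 6 comparisons.

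After quantile normalization, 6 of the 36 differences against control passed, and they were spread over 4 genes. Cyp2c22 was higher with triadimefon at 6 h and with myclobutanil at 6 h and 24 h. At 24 h of triadimefon Cyp2c7 was higher and Cyp2c13 lower, and at 14 days of triadimefon Cyp2a2 was higher. That is 1 of 6 members for each compound at 6 h, 2 for triadimefon and 1 for myclobutanil at 24 h, and 1 and 0 at 14 days. The share of all probe sets called was then 2.67% for triadimefon and 1.42% for myclobutanil at 6 h, 9.03% and 10.8% at 24 h, and 9.15% and 1.11% at 14 days. The differences lay between -0.23 and 0.33 units, with intervals from -0.37 to 0.41. In 2 of the 36 the treated and control arrays did not overlap, both for Cyp2c22. How many of all probe sets lay without overlap was not counted on either scale, so this number has no baseline. A fit that kept the deposited scores and added the 99th percentile of each array as a covariate, chosen after seeing the data, called 9 of the 90 differences, 7 of them among the 13 called after quantile normalization. Both ways take the uneven bright end out of the same arrays, so this overlap is no independent support. The shares of all probe sets called in the covariate fit stand beside its calls below.

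**Figure D2:**
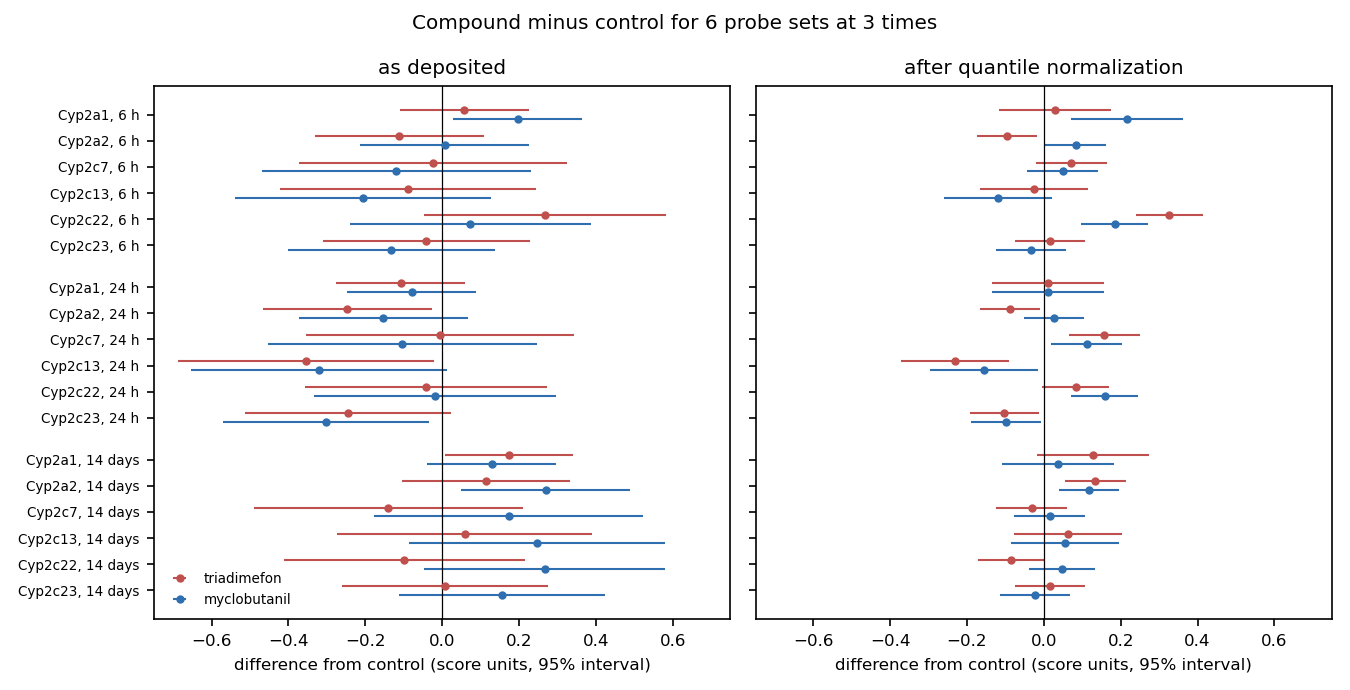
Compound minus control for 6 genes at 6 h, 24 h and 14 days (rows), in score units with 95% intervals from limma, for triadimefon (red) and myclobutanil (blue), as deposited (left) and after quantile normalization (right). Most intervals as deposited cross 0 and are wide; after normalization the largest shift is Cyp2c22 with triadimefon at 6 h (0.33).

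Cyp2c22, which hydroxylates retinoic acid in the rat, gave the clearest values. As deposited, its scores at 6 h were 4.18, 3.88, 4.19, 3.73 and 4.10 with triadimefon, 3.62, 3.96, 3.57, 3.85 and 4.11 with myclobutanil, and 3.49, 4.09, 3.98, 3.56 and 3.61 in controls. These groups overlapped, and the differences of 0.27 ± 0.16 for triadimefon and 0.07 ± 0.16 for myclobutanil (SE, n = 5 each) had limma adjusted p of 0.546 and 0.957. After quantile normalization the same arrays read 4.20, 4.07, 4.13, 4.06 and 4.07 with triadimefon, 3.95, 3.95, 3.92, 3.93 and 4.07 with myclobutanil, and 3.94, 3.80, 3.63, 3.78 and 3.75 in controls. All 5 triadimefon arrays lay above all controls, while for myclobutanil 1 control, at 3.94, lay among the treated arrays. The normalized differences were 0.33 ± 0.04 for triadimefon (adjusted p = 2.77e-06) and 0.18 ± 0.04 for myclobutanil (adjusted p = 0.0148).

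The 2 calls at 6 h did not hold equally. The triadimefon call held when any of the 10 arrays was left out (0.29 to 0.37), and the percentile covariate gave 0.26 (adjusted p = 0.0154) with 2.21% of all probe sets called. The myclobutanil call was lost without control 3 (0.15 to 0.22 over the 10 arrays left out in turn) or without myclobutanil array 5, and the covariate gave 0.14 (adjusted p = 0.426). The 6 h groups also differ in the ending of the array file names: 3 of 5 triadimefon and 3 of 5 myclobutanil arrays end in 12, and 2 of 5 controls in 21 or 31. With the ending as a covariate on the normalized scores the differences were 0.27 for triadimefon (adjusted p = 0.00732) and 0.13 for myclobutanil (adjusted p = 0.545). Over arrays of ending 11 alone they were 0.24 (adjusted p = 0.0665) and 0.13 (adjusted p = 0.668), with 2 treated arrays left for either compound and 3 controls.

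At 24 h the normalized Cyp2c22 scores were 4.17, 4.21, 4.11, 4.10 and 3.99 with triadimefon, 4.22, 4.21, 4.16, 4.22 and 4.13 with myclobutanil, and 4.08, 3.95, 4.07, 4.03 and 4.04 in controls. The 5 myclobutanil arrays lay above every control, and the triadimefon arrays overlapped them. The difference for myclobutanil was 0.16 ± 0.04 (limma adjusted p = 0.0112) and was called whichever array was left out (0.14 to 0.17), and with the percentile covariate it was 0.21 (adjusted p = 0.0367; 8.82% of probe sets called). As deposited it was -0.02 ± 0.16 (adjusted p = 0.965), so the sign turned with the normalization. For triadimefon the normalized difference was 0.08 ± 0.04 (adjusted p = 0.249). At 14 days the normalized means were 3.91 ± 0.08 with triadimefon, 4.04 ± 0.07 with myclobutanil and 3.99 ± 0.04 in controls (SD, n = 5 each), with differences of -0.09 (adjusted p = 0.213) and 0.05 (adjusted p = 0.685).

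The controls of Cyp2c22 also differed between times, but these differences share their 5 control arrays of 6 h with both 6 h differences above. They are therefore not separate from those calls, nor is the change of the triadimefon effect from 6 h to 24 h, given below. Normalized, the controls averaged 3.78 ± 0.11 at 6 h, 4.03 ± 0.05 at 24 h and 3.99 ± 0.04 at 14 days. The 24 h controls all lay above the 6 h ones (0.25 ± 0.04, limma adjusted p = 0.000182), and the 14 day controls overlapped the 6 h ones (0.21 ± 0.04, adjusted p = 0.00148). Both calls held with each array left out, with the file ending as a covariate (0.21, adjusted p = 0.0147, and 0.17, adjusted p = 0.0367) and over ending 11 alone (0.21 and 0.17, adjusted p of 0.0117 and 0.0313). With the percentile covariate the values were 0.19 (adjusted p = 0.11) and 0.25 (adjusted p = 0.0158; 5.70% of probe sets called). As deposited they were 0.37 ± 0.16 (adjusted p = 0.245) and 0.28 ± 0.16 (adjusted p = 0.334). The order of the 9 normalized means ran from 4.19 (myclobutanil, 24 h) through triadimefon at 24 h and 6 h, myclobutanil at 14 days, the controls at 24 h and 14 days, myclobutanil at 6 h and triadimefon at 14 days to 3.78 (controls, 6 h). The arrays of each group overlapped those of its neighbours in this order.

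Cyp2c7, the other retinoic acid hydroxylase and a female-biased gene, had deposited scores at 24 h of 4.20, 4.42, 4.44, 4.13 and 4.63 with triadimefon, 4.38, 4.17, 4.41, 4.36 and 4.02 with myclobutanil, and 4.07, 5.04, 4.34, 4.05 and 4.35 in controls. The groups overlapped, and the second control stood highest. Normalized, the scores were 4.47, 4.33, 4.46, 4.38 and 4.50 with triadimefon, 4.34, 4.46, 4.43, 4.32 and 4.36 with myclobutanil, and 4.21, 4.35, 4.36, 4.21 and 4.22 in controls. Triadimefon was higher by 0.16 ± 0.05 (limma adjusted p = 0.0233), with 4 of 5 arrays above every control, and by 0.26 with the percentile covariate (adjusted p = 0.0125; 7.93% of probe sets called). As deposited the difference was -0.01 ± 0.17 (adjusted p = 0.991). The normalized call was lost when any of 6 of the 10 arrays was left out (controls 1, 4 and 5, triadimefon 1, 3 and 5; adjusted p up to 0.0745). The normalized difference for myclobutanil was 0.11 ± 0.05 (adjusted p = 0.117).

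At the other times the groups of Cyp2c7 lay together. Its deposited means at 6 h were 4.30 ± 0.23 with triadimefon, 4.20 ± 0.19 with myclobutanil and 4.32 ± 0.48 in controls (SD, n = 5 each). At 14 days they were 4.26 ± 0.15, 4.57 ± 0.31 and 4.40 ± 0.27 in the same order of groups. The normalized means of all 9 groups lay between 4.27 (controls at 24 h) and 4.43 (triadimefon at 24 h), and no difference at 6 h or 14 days passed the test on either scale.

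Cyp2c13, a male-specific steroid hydroxylase, had deposited scores at 24 h of 3.55, 3.97, 3.66, 3.62 and 3.41 with triadimefon, 3.95, 3.43, 3.81, 3.88 and 3.33 with myclobutanil, and 3.84, 4.45, 3.86, 3.78 and 4.05 in controls. Of the triadimefon arrays 4 lay below every control, as did 2 of the myclobutanil arrays. The deposited differences, -0.35 ± 0.16 for triadimefon (limma adjusted p = 0.193) and -0.32 ± 0.16 for myclobutanil (adjusted p = 0.252), were the lowest of the 36 against control. Normalized, the scores were 3.80, 3.89, 3.70, 3.81 and 3.30 with triadimefon, 3.90, 3.69, 3.79, 3.83 and 3.64 with myclobutanil, and 3.99, 3.85, 3.88, 3.94 and 3.98 in controls. The normalized triadimefon difference was -0.23 ± 0.07 (adjusted p = 0.0293). It was lost without triadimefon array 5, the one at 3.30 (-0.13, adjusted p = 0.169), without control 1 or without control 5, and the percentile covariate gave -0.12 (adjusted p = 0.431). For myclobutanil the normalized difference was -0.16 ± 0.07 (adjusted p = 0.154).

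The deposited means of Cyp2c13 at 6 h were 3.75 ± 0.16 with triadimefon, 3.63 ± 0.27 with myclobutanil and 3.83 ± 0.39 in controls, and at 14 days 3.90 ± 0.19, 4.09 ± 0.33 and 3.84 ± 0.29 (SD, n = 5 each). None of these differences passed. The suffix of its probe set (s_at) marks probes that can match more than 1 transcript, so a close relative may share its signal.

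Cyp2a2, the male-specific 2A gene, had deposited scores at 14 days of 3.22, 3.52, 3.56, 3.20 and 3.37 with triadimefon, 3.36, 3.71, 3.53, 3.69 and 3.37 with myclobutanil, and 3.31, 3.52, 3.15, 3.03 and 3.30 in controls. Normalized, they were 3.31, 3.44, 3.46, 3.39 and 3.32 with triadimefon, 3.34, 3.33, 3.41, 3.26 and 3.50 with myclobutanil, and 3.20, 3.33, 3.30, 3.21 and 3.20 in controls. The groups overlapped on both scales, and after normalization 1 control stood above the lowest triadimefon array and 2 above the lowest myclobutanil array. Triadimefon was higher by 0.13 ± 0.04 after normalization (limma adjusted p = 0.0239), by 0.11 with the percentile covariate (adjusted p = 0.0477; 10.7% of probe sets called) and by 0.11 ± 0.11 as deposited (adjusted p = 0.550). The normalized call was lost without any of 6 arrays (controls 1, 4 and 5, triadimefon 2, 3 and 4; adjusted p up to 0.070). Myclobutanil was higher by 0.12 ± 0.04 normalized (adjusted p = 0.134) and by 0.27 ± 0.11 as deposited (adjusted p = 0.258), the highest deposited difference of the 36.

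At 6 h the normalized Cyp2a2 scores were 3.06, 3.22, 3.15, 3.20 and 3.18 with triadimefon, 3.39, 3.43, 3.32, 3.30 and 3.26 with myclobutanil, and 3.33, 3.29, 3.21, 3.21 and 3.25 in controls. Triadimefon lay lowest and myclobutanil highest, and every triadimefon array was below every myclobutanil one. Against control the differences were -0.10 ± 0.04 for triadimefon (limma adjusted p = 0.217) and 0.08 ± 0.04 for myclobutanil (adjusted p = 0.408). The 24 h means, normalized, were 3.31 ± 0.04 with triadimefon, 3.42 ± 0.04 with myclobutanil and 3.40 ± 0.07 in controls, with no difference called.

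Cyp2a1, the female-biased 2A gene, had the lowest scores and the weakest tie to the bright end. Its deposited scores at 6 h were 1.50, 1.62, 1.59, 1.50 and 1.57 with triadimefon, 1.61, 1.80, 1.82, 1.57 and 1.69 with myclobutanil, and 1.42, 1.56, 1.65, 1.43 and 1.44 in controls. All 5 arrays of either compound lay above the control mean of 1.4993, the lowest triadimefon array at 1.5022. The difference for myclobutanil was 0.20 ± 0.08 (limma adjusted p = 0.464), or 0.22 ± 0.07 normalized (adjusted p = 0.155). For triadimefon it was 0.06 ± 0.08 (adjusted p = 0.875). At 24 h the deposited means were 1.61 ± 0.19 with triadimefon, 1.64 ± 0.07 with myclobutanil and 1.72 ± 0.28 in controls, and at 14 days 1.76 ± 0.11, 1.71 ± 0.07 and 1.58 ± 0.08 (SD, n = 5 each). The 14 day differences were 0.17 ± 0.08 for triadimefon (adjusted p = 0.193) and 0.13 ± 0.08 for myclobutanil (adjusted p = 0.527).

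The probe set shared by Cyp2a1 and Cyp2a2 had scores near those of Cyp2a2. Its deposited group means lay between 3.12 (triadimefon at 6 h) and 3.44 (controls at 24 h), and its normalized difference was 0.13 for triadimefon at 14 days (limma adjusted p = 0.0502) and -0.08 for triadimefon at 6 h (adjusted p = 0.449).

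Cyp2c23, the arachidonic acid epoxygenase, passed the test in no comparison on either scale or with the percentile covariate. Its deposited scores at 24 h were 3.37, 3.58, 3.66, 3.35 and 3.72 with triadimefon, 3.67, 3.34, 3.52, 3.51 and 3.35 with myclobutanil, and 3.55, 4.23, 3.82, 3.58 and 3.73 in controls. Myclobutanil lay lower by 0.30 units on average, with 4 of 5 arrays below every control, and its limma adjusted p of 0.161 was the lowest of the deposited differences against control. Normalized, the differences were -0.10 ± 0.04 for triadimefon (adjusted p = 0.156) and -0.10 ± 0.04 for myclobutanil (adjusted p = 0.170). At 6 h its deposited means were 3.63 ± 0.20 with triadimefon, 3.54 ± 0.14 with myclobutanil and 3.67 ± 0.37 in controls, and at 14 days 3.73 ± 0.08, 3.88 ± 0.27 and 3.72 ± 0.19. Normalized, all 9 means lay between 3.58 and 3.71.

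**Figure D3:**
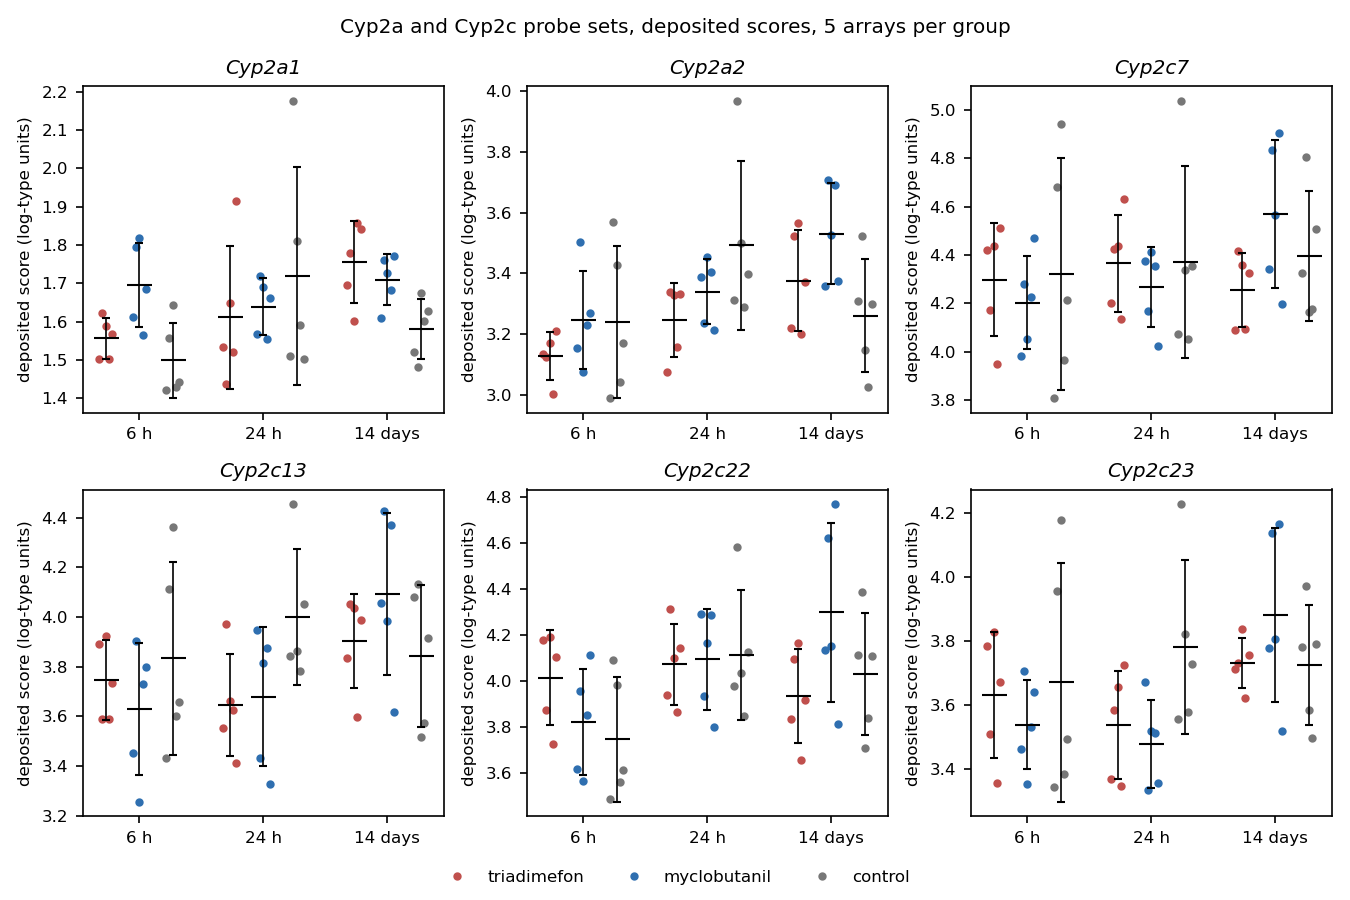
Deposited scores of 6 genes (panels) in 45 arrays by time, with triadimefon (red), myclobutanil (blue) and controls (grey) side by side; points are arrays, long bars means and whiskers SD (n = 5). The groups overlap at each time, and 1 or 2 controls at 6 h and 24 h stand high for most genes.

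**Figure D4:**
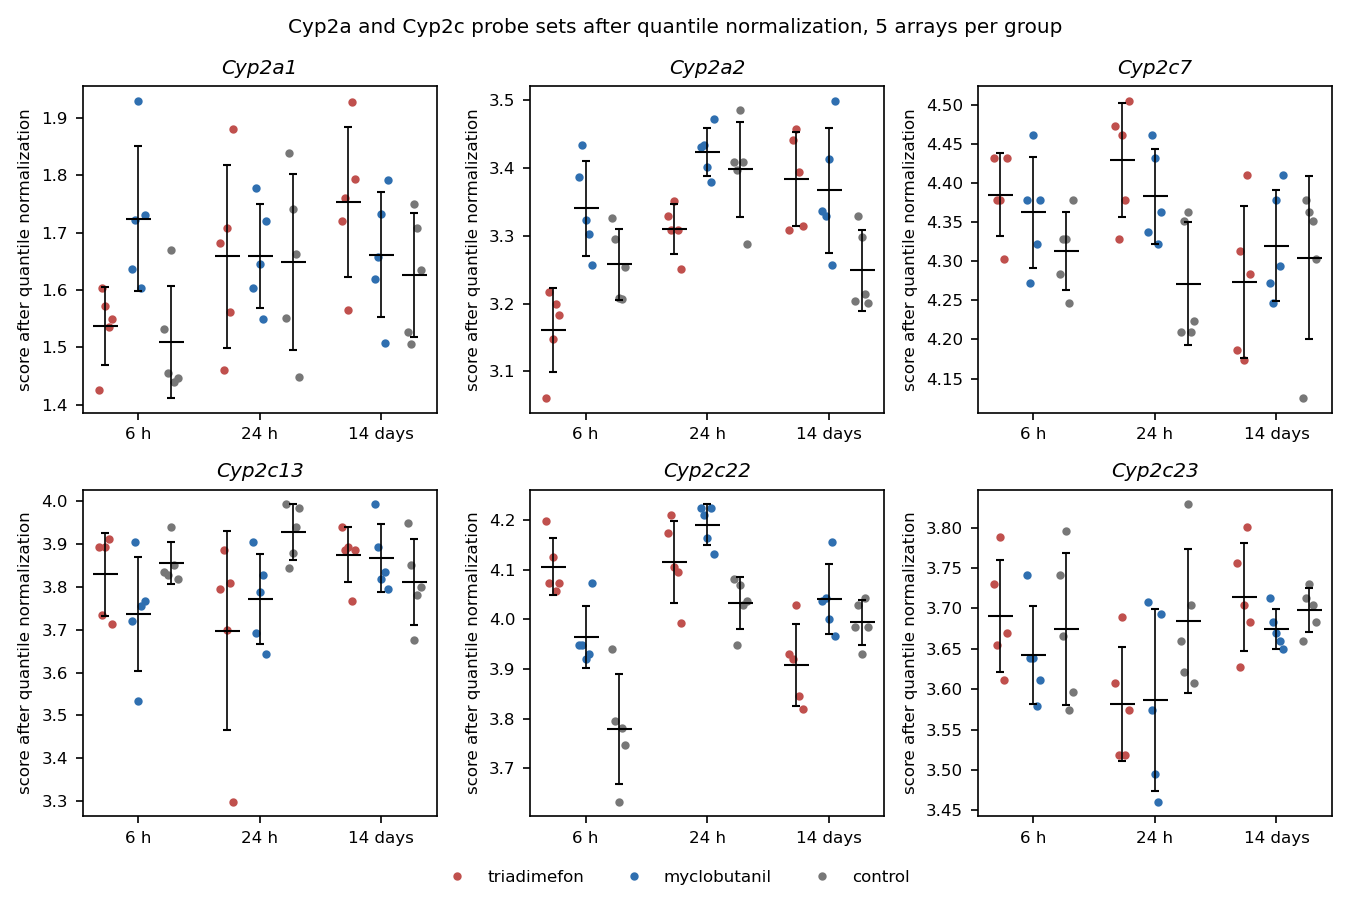
The same arrays after quantile normalization, with the same colours, means and SD; the vertical scales are narrower. Cyp2c22 controls at 6 h (mean 3.78) lie below the triadimefon arrays (mean 4.11), and Cyp2c13 with triadimefon at 24 h has 1 array at 3.30.

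Between the compounds, whose doses differ, 0 of 6 members passed as deposited at any time, with 0.251%, 1.06% and 0.332% of all probe sets called at 6 h, 24 h and 14 days. By the unadjusted p, 0, 0 and 1 members were under 0.05, beside 2307, 3340 and 3849 of all 31042 probe sets. After normalization 1 passed at 6 h, when 0.754% of probe sets were called, and none at 24 h (3.60%) or 14 days (0.941%). That 1 was Cyp2a2, lower with triadimefon than with myclobutanil (-0.18 ± 0.04, limma adjusted p = 0.0123), without overlap. The covariate fit gave -0.17 (adjusted p = 0.0133; 0.535% of probe sets called). The normalized call was lost without triadimefon array 1 or myclobutanil array 2, and over arrays of ending 11 the difference was -0.22 (adjusted p = 0.165). The probe set shared with Cyp2a1 differed by -0.18 ± 0.04 (adjusted p = 0.0306), also without overlap. Cyp2c22 had normalized differences of 0.14 at 6 h (interval 0.05 to 0.23, adjusted p = 0.133) and -0.13 at 14 days (interval -0.22 to -0.05, adjusted p = 0.131), neither of them called.

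The change of a compound's effect between times was tested as an interaction. As deposited, 0 of 6 members passed for triadimefon from 6 h to 24 h (3.13% of all probe sets called) or from 24 h to 14 days (12.7%), or for myclobutanil over the same steps (1.75% and 4.56%). Members with an unadjusted p under 0.05 numbered 0 and 2 for triadimefon and 1 and 3 for myclobutanil. Of all 31042 probe sets, 5608 and 9350 were under it for triadimefon and 4047 and 6661 for myclobutanil. The lowest adjusted p of a member was that of Cyp2a2 with myclobutanil at 14 days against 24 h (0.42 ± 0.15, limma adjusted p = 0.0975). Normalized, 1 and 2 members passed for triadimefon (3.50% and 11.4% of probe sets) and 0 and 0 for myclobutanil (4.03% and 3.89%). The effect of triadimefon on Cyp2c22 was smaller at 24 h than at 6 h (-0.24 ± 0.06, adjusted p = 0.0158), a call that was lost with the file ending as a covariate (-0.19, adjusted p = 0.18) and with the percentile covariate (-0.07, adjusted p = 0.711).

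Its effect on Cyp2a2 was higher at 14 days than at 24 h by 0.22 ± 0.05 (adjusted p = 0.00742). That call held with each of 20 arrays left out and with the percentile covariate (0.18, adjusted p = 0.016), in a fit that called 15.6% of all probe sets. The same step gave 0.29 ± 0.10 for Cyp2c13 (adjusted p = 0.0452), which was lost in 14 of 20 fits that left out an array. For Cyp2c7 and Cyp2c22 the normalized step missed the threshold (-0.19, adjusted p = 0.0503, and -0.17, adjusted p = 0.0631), and with the percentile covariate it passed (-0.41, adjusted p = 0.00406, and -0.30, adjusted p = 0.0244).

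Between the controls as deposited, 0 of 6 members passed at 24 h against 6 h (2.78% of all probe sets called) or at 14 days against 6 h (3.33%). By an unadjusted p under 0.05 they numbered 3 and 0, beside 4316 and 5591 of all 31042 probe sets. Normalized, 2 and 1 passed, with 4.49% and 5.26% of probe sets called: Cyp2c22 in both, as above, and Cyp2a2 at 24 h (0.14 ± 0.04, limma adjusted p = 0.0266). The Cyp2a2 call was lost without any of 5 of 10 arrays and with the file ending as a covariate (0.14, adjusted p = 0.123).

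Once the arrays were levelled, the scores of the members no longer rose and fell together. Quantile normalization gives every array the same distribution, so movement that bright probe sets share is removed by the method itself. As deposited, the within-group correlations among Cyp2a2, Cyp2c7, Cyp2c13, Cyp2c22 and Cyp2c23 over the 45 arrays were 0.818 to 0.944, in arrays that share the uneven bright end. After normalization they were -0.630 to 0.395, the lowest between Cyp2c7 and Cyp2c13. Cyp2a1 then went with Cyp2c7 (0.643) and against Cyp2c13 (-0.640) and Cyp2c22 (-0.583). The 2 male genes did not go together: Cyp2a2 had 0.217 with Cyp2a1, 0.204 with Cyp2c7 and -0.087 with Cyp2c13. The correlations are descriptions of these arrays, and on neither scale can they tell whether the genes vary together in the liver.

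Over 14211 other genes and the 45 arrays, the normalized scores of Cyp2a1 were most like those of Sult2a6, a hydroxysteroid sulfotransferase (Pearson r = 0.800), and Ugt2b34l1 (0.648). Sult2a6 was also the closest as deposited (0.721). For Cyp2c13 they were Ust5r (0.795), Hao2 (0.742), a hydroxyacid oxidase, and Car3 (0.709), a carbonic anhydrase. For Cyp2c22 they were Ptges3 (0.800), Ggct (0.763) and Tmx1 (0.756), for Cyp2c7 Prlr, the prolactin receptor (0.645), for Cyp2a2 Clcn4 (0.684) and for Cyp2c23 Ppp3ca (0.587). As deposited, the closest genes of the bright members were other abundant ones, such as C3 for Cyp2c7 (0.959), Pigr for Cyp2c23 (0.957), Fga for Cyp2c13 (0.936), Pecr for Cyp2c22 (0.930) and Atp5pb for Cyp2a2 (0.922).

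Against the members stand 3 other genes of the same subfamilies that were measured out of 10 listed, Cyp2a3, Cyp2c12 and Cyp2c6v1. Cyp2a3 averaged -0.197 over all arrays, below the array medians, so it says little about a bright gene. As deposited none of the 3 was called in a treatment comparison. After normalization Cyp2c6v1, a 2C gene that phenobarbital raises in the rat, was called in all 6, and it is named here after its values were seen. At 24 h its normalized scores were 4.35, 4.35, 4.33, 4.30 and 4.33 with triadimefon, 4.33, 4.35, 4.32, 4.34 and 4.31 with myclobutanil, and 3.92, 3.99, 4.08, 3.88 and 3.78 in controls. The normalized differences of Cyp2c6v1 were 0.28, 0.40 and 0.36 with triadimefon at 6 h, 24 h and 14 days (limma adjusted p of 1.12e-06, 1.29e-10 and 1.47e-09) and 0.23, 0.40 and 0.30 with myclobutanil (4.72e-05, 6.16e-11 and 4.24e-07). As deposited they lay between 0.09 and 0.52, with an adjusted p of 0.102 at lowest.

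CAR and PXR targets moved further than the members, but they were listed as inducible genes and with earlier results of these data known. Of 15 measured out of 23 listed, 4, 11 and 8 were higher with triadimefon at 6 h, 24 h and 14 days as deposited, and 5, 9 and 8 with myclobutanil, with 0 lower. Their median differences were 0.30, 0.85 and 0.71 with triadimefon and 0.36, 0.66 and 0.62 with myclobutanil. Of all genes measured, the fit called 1.22%, 10.9% and 8.22% with triadimefon and 0.464%, 10.8% and 1.19% with myclobutanil as deposited, in either direction. The deposited list counts here and below are to be read against these shares. For the normalized counts the shares are those of all probe sets after normalization. They were 2.67%, 9.03% and 9.15% with triadimefon and 1.42%, 10.8% and 1.11% with myclobutanil. Normalized, 6, 15 and 10 of the targets were higher with triadimefon and 6, 15 and 9 with myclobutanil, with 0 lower. Ces2c, a carboxylesterase, was higher by 1.05 at 24 h and 1.50 at 14 days of triadimefon (limma adjusted p of 1.98e-09 and 4.22e-14). Aldh1a1, which makes retinoic acid from retinal, was higher by 1.17 and 1.75 in the same groups (adjusted p of 0.00022 and 2.64e-07). Alas1, the first enzyme of haem synthesis, was higher by 0.81 and 0.94 at 6 h of triadimefon and of myclobutanil (adjusted p of 0.00861 and 0.00215).

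**Figure D5:**
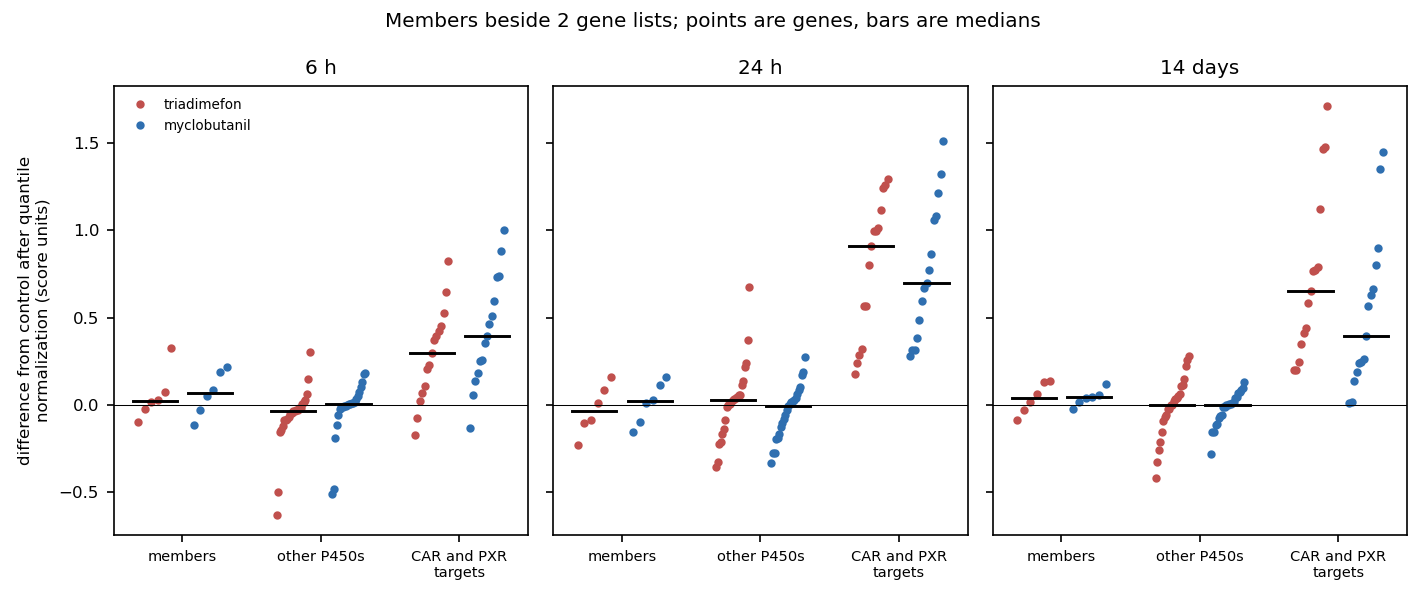
Difference from control after quantile normalization (vertical axis, score units) at 6 h, 24 h and 14 days (panels) for the 6 genes described here, other P450s and CAR and PXR targets; points are genes, bars medians, triadimefon red and myclobutanil blue. The 6 genes lie between -0.23 and 0.33, while targets reach above 1 at 24 h and 14 days.

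As deposited, of 23 other P450s of families 1 to 4, 0 were higher and 1 lower with triadimefon at 6 h, 1 and 6 at 24 h, and 2 and 0 at 14 days. With myclobutanil 5 were lower at 24 h as deposited, and 0 were called at 6 h and 14 days. Normalized, 0 were higher and 2 lower with triadimefon at 6 h, 2 and 6 at 24 h, and 3 and 4 at 14 days, and with myclobutanil 0 and 3, 2 and 5, and 0 and 1. Cyp4a3, a fatty acid hydroxylase, was lower at 6 h and higher at 24 h of triadimefon (-0.63 and 0.55, limma adjusted p of 0.0219 and 0.0157). Cyp2f4 (-0.44, adjusted p = 0.000394) was among those lower at 24 h of triadimefon, and Cyp2t1 (-0.34, adjusted p = 9.6e-05) at 24 h of myclobutanil.

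As deposited, of 27 genes of growth hormone signalling and sex-biased expression, 3 were higher with triadimefon at 6 h, the female-biased A1bg (0.63, limma adjusted p = 0.0221) and Cux2 (0.43, adjusted p = 0.000662) and the cofactor Trim24 (0.63, adjusted p = 0.0135). At 24 h 3 of 27 were lower with triadimefon, near the 10.9% of all genes called, and 4 of 27 with myclobutanil, where 10.8% were. They included Ghr, the growth hormone receptor (-0.34 and -0.38, adjusted p of 0.0247 and 0.0103), and Igfals, a subunit of the complex that carries IGF1 in plasma (-0.60 and -0.51, adjusted p of 0.000229 and 0.00107). At 14 days 2 were lower with triadimefon and 0 were called with myclobutanil. Normalized, 4 were higher and 1 lower with triadimefon at 6 h, 0 and 4 at 24 h, and 0 and 3 at 14 days, and with myclobutanil 1 and 0, 0 and 5, and 0 and 0.

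As deposited, of 23 transcription factors and receptors of basal P450 expression, 0 were called at 6 h. At 24 h 2 of 23 were lower with triadimefon, Cebpa (-0.38, limma adjusted p = 0.0257) and Nr3c1, the glucocorticoid receptor (-0.33, adjusted p = 0.00271), and 4 with myclobutanil, Nr3c1 among them (-0.26, adjusted p = 0.0136). The triadimefon count is no larger a share than the 10.9% of all genes called. At 14 days 1 was higher with triadimefon and 0 were called with myclobutanil. Normalized, 1 was lower at 6 h with either compound, 1 was higher and 1 lower with triadimefon and 4 lower with myclobutanil at 24 h, and 0 were called at 14 days. Cebpa then had -0.24 with triadimefon at 24 h (adjusted p = 0.0546). In controls 2 of these factors were higher and 3 lower at 24 h than at 6 h, with Dbp, a clock output factor, at -1.32 (adjusted p = 1.33e-05) and Rora at 0.43 (adjusted p = 2.95e-06).

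As deposited, of 21 genes of retinoid and arachidonic acid handling, 2 were higher and 1 lower with triadimefon at 6 h, 3 and 1 at 24 h, and 3 and 2 at 14 days, and with myclobutanil 2 and 0, 2 and 2, and 2 and 0. Normalized, the counts were 2 and 2, 5 and 1, and 4 and 5 with triadimefon, and 2 and 3, 2 and 3, and 2 and 1 with myclobutanil. The shares of all genes called as deposited were 1.22%, 10.9% and 8.22% with triadimefon and 0.464%, 10.8% and 1.19% with myclobutanil. Cyp26a1 and Cyp26b1, which clear retinoic acid, were higher at 6 h of triadimefon (0.45, limma adjusted p = 0.00037, and 0.64, adjusted p = 0.00393) and of myclobutanil (0.33, adjusted p = 0.0196, and 0.69, adjusted p = 0.00201). The members of this list that were higher at the later times included Aldh1a1 and Ephx1, which also stand among the CAR and PXR targets. As deposited, of 19 acute phase genes, 1 was lower at 6 h with either compound, the iron hormone Hamp (-1.51 with triadimefon, adjusted p = 0.0409, and -1.95 with myclobutanil, adjusted p = 0.00571). At 24 h 1 was lower with either compound, and at 14 days 2 were higher with triadimefon and 1 with myclobutanil. Normalized, 2 were higher and 1 lower with triadimefon at 6 h, 2 and 2 at 24 h, and 2 and 1 at 14 days, and with myclobutanil 2 and 1, 0 and 3, and 1 and 0.

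Markers of other cells moved in 1 group above all. Of 9 Kupffer cell and macrophage markers, 9 were lower at 24 h of myclobutanil on both scales, and 0 were called in the other 5 treatment comparisons as deposited. Normalized, 2 were also lower at 14 days of myclobutanil. Cyp2c22 was called after normalization at 24 h of myclobutanil too. At 24 h the mean of these markers per array lay between 0.82 and 1.11 with myclobutanil and between 1.17 and 1.67 in controls. Clec4f, which marks Kupffer cells, differed there by -0.79 (limma adjusted p = 2.9e-05). The part of these markers in the result for Cyp2c22 at 24 h of myclobutanil was not tested. Of the 13 hepatocyte markers, 0 were called as deposited in any treatment comparison, and 3 and 4 were lower after normalization at 24 h of triadimefon and of myclobutanil, and 2 and 0 at 14 days. As deposited, 7 endothelial markers had 2 lower at 24 h of myclobutanil and 1 higher at 14 days of triadimefon, 5 bile duct markers had 1 higher (Epcam) at 14 days of either compound, 7 stellate cell markers had 1 lower at 14 days of triadimefon, and 4 erythroid and 6 lymphocyte markers had 0 called. Normalized, these counts differed only for erythroid markers, with 1 lower at 24 h of triadimefon.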

How the data were processed

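Liver RNA was measured on 45 Affymetrix arrays. The deposited values are scores on a log-type scale; how they were summarised and normalized is not given in the sources used here. Array medians lay between -0.0122 and 0.0326, so the authors' deposited scores were centred near 0. Of 31099 probe sets, 57 Affymetrix controls were left out; of the others, 20826 name 1 gene, 436 name more and 9780 name no gene. The fit, by limma 3.58.1 (R 4.3.3), gave each group a mean over all 45 arrays; tests were two-sided, with Benjamini-Hochberg adjustment over 31042 probe sets and a threshold of 0.05. The code was tested on simulated data. The planned design allowed for log2 values; scores were used as deposited. Arrays have no read depth, and their number limits the precision. Values after ± are the SD over the 5 arrays for a group mean and the SE of the fit for a difference.

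The members and lists were chosen with earlier results of these data known. Every member's probe set is named, as are the genes most correlated with it (3 chosen, part printed) and, of up to 4 called genes per list and comparison with the largest differences, a part picked after the values were seen. Where a gene had several probe sets, the one with the highest mean stood for it. Alternatives were quantile normalization, a filter that dropped probe sets below the median level, a fit of the compared groups alone, the file ending as a covariate, only arrays of ending 11, a replicate block, each array left out and, added after seeing the data, the 99th percentile as a covariate and quantile normalization combined with the others. No pair of arrays was identical. Promoter sequences and positions come from RefSeq (GRCr8), matched by symbol; the build of the array annotation plays no part in them.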

Additional observations from a re-analysis of the deposited data

How the results depend on the processing

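As deposited, 0 members were called in each of 15 comparisons, and this count stayed 0 when only probe sets above the median level entered, when only the groups compared were fitted, with the file ending as a covariate and over arrays of ending 11. Leaving out 1 array gave 0 to 1 for the triadimefon effect at 14 days against 24 h (Cyp2a1, 0.33 without control 1 of 24 h and 0.36 without triadimefon array 5 of 24 h, adjusted p of 0.0489 and 0.0283) and 0 elsewhere. Quantile normalization called 1 member for myclobutanil at 6 h, 1 for triadimefon at 6 h, 1 for myclobutanil at 24 h, 2 for triadimefon at 24 h, 1 for triadimefon at 14 days, 1 between the compounds at 6 h, 1 and 2 for the triadimefon effect at 24 h against 6 h and at 14 days against 24 h, and 2 and 1 for the controls at 24 h and at 14 days against 6 h. The 99th percentile as a covariate called 1 for triadimefon at each of 6 h, 24 h and 14 days, 1 for myclobutanil at 24 h, 1 between the compounds at 6 h, 3 for the triadimefon effect at 14 days against 24 h and 1 for the controls at 14 days against 6 h. The sign turned for Cyp2c22 with myclobutanil at 24 h, which was -0.0187 as deposited, 0.1581 after quantile normalization (also with the file ending, ending 11 or the replicate block) and 0.2103 with the percentile covariate; leaving out 1 array gave -0.0854 to 0.099 as deposited and 0.1371 to 0.1726 normalized. It turned for Cyp2c7 with triadimefon at 24 h, which was -0.0054 as deposited, 0.1577 normalized (also in those 3 combinations) and 0.2608 with the covariate; leaving out 1 array gave -0.0848 to 0.1612 and 0.1387 to 0.1829. In 0 comparisons did every same-number pair of arrays correlate above 0.1, though single pairs reached 0.594 (controls at 24 h against 6 h). Pairs of unlike number were not compared, so the check does not settle whether arrays are paired. With the replicate numbers as a replicate block, 1 member was called for either compound's effect at 14 days against 24 h, and 0 elsewhere. It was Cyp2a2, at 0.42 for myclobutanil (limma adjusted p = 0.0395) and 0.36 for triadimefon (adjusted p = 0.0478). The share of all probe sets called with the block, or with an array left out, is not given here, so these calls lack a baseline. In the plain fit of the deposited scores it was 4.56% for myclobutanil and 12.7% for triadimefon at this step. The causes were not tested.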
